A study of Homo sapiens with 20 samples.

Results

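The DEAD and DEAH box helicases are a large family of ATP-driven enzymes that unwind RNA or displace proteins from it. Its members were taken here as all genes whose symbol begins with DDX or DHX and a digit. Of the 7112 genes with an event in the 7 deposited tables of differential splicing, 28 belong to this family. They carry 99 of the 26803 listed table entries and 78 of the 19275 distinct events. The 28 are DDX1, DDX3X, DDX5, DDX11, DDX17, DDX18, DDX19B, DDX20, DDX31, DDX39B, DDX41, DDX42, DDX46, DDX49, DDX50, DDX51, DDX55, DDX58, DHX16, DHX29, DHX30, DHX32, DHX33, DHX35, DHX36, DHX37, DHX38 and DHX57.

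The family is named after the one-letter code of its motif II, which binds and hydrolyses ATP together with motif I, while motif VI lies in the second of the paired helicase domains and completes the ATP site. DEAD box proteins mostly open short duplexes or clamp RNA, whereas DEAH box proteins mostly move along a strand. Several of them drive steps of the splicing cycle itself, and others act in mRNA export, translation, ribosome assembly or the sensing of viral RNA.

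All samples were HEK293T, a human embryonic kidney line, and there were 20 of them in 10 groups of 2. In the first set, cells received the Aurora-A kinase inhibitor MLN8237 (alisertib) for 24 hours or its solvent DMSO. In the second set, siRNAs against SRSF1, SRSF2, SRSF7 or SF3B5 were delivered with Lipofectamine RNAiMax for 48 hours and set against a non-targeting siRNA, siNT1. In the third set, siRNAs against SRSF3 or RBM39 were set against another non-targeting siRNA, siNT2, also for 48 hours. SRSF1, SRSF2, SRSF3 and SRSF7 are SR proteins, which bind exons and promote their recognition. RBM39 is a splicing factor related to U2AF, and SF3B5 is a small subunit of SF3b, the part of the U2 snRNP that holds the branch point. The series title places these factors downstream of Aurora-A, and the tables allow the question of which helicase transcripts were spliced differently after each treatment.

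Each listed event carries a percent spliced in (PSI), the share of a gene's transcripts that include an exon, retain an intron or use a splice site. The tables give the authors' mean PSI of each group, so no value has a spread between replicates, the read depth behind each value is unknown, and no test could be made. A change is the treated mean minus the control mean, in percentage points, and the tables list changes of about 15 points or more. The full listing rule is unknown. An event missing from a table may have been smaller than that, not measured, or left out by another criterion. The labels do not say whether the 2 samples of a group were separate cultures. Neither the depletion of each target nor the identity of the cells could be checked, since gene expression was not analysed here.

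The exons whose values recur below are shown first, to make visible what is left out when they are skipped. Positions are on GRCh38, assigned where GENCODE 29 holds exactly 1 exon of the deposited length in that gene, and the sequences are read from the GENCODE transcripts, 5′ to 3′ on the coding strand. Capitals mark the codons of motif I or motif VI, including partial codons at an exon edge. The 161-base exon of DHX33 is at chr17:5463529-5463689 (minus strand), the 93-base exon of DHX35 at chr20:38972559-38972651 (plus) and the 128-base exon of DDX39B at chr6:31539147-31539274 (minus). These carry motif I. The 171-base and the 152-base exons of DDX58, at chr9:32467762-32467932 and chr9:32466290-32466441 (minus), share motif VI. The 37-base exon of DDX42 at chr17:63799589-63799625 (plus), the 84-base exon of DHX57 at chr2:38818877-38818960 (minus) and the 82-base exon of DHX35 at chr20:39028418-39028499 (plus) had the largest changes of the family, and the 29-base exon of DHX30 at chr3:47819236-47819264 (plus) went in opposite directions.
DHX33 exon of 161 bases: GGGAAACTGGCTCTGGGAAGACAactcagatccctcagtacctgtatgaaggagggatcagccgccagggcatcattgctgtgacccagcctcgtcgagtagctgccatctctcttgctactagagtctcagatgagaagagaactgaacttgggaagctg
DHX35 exon of 93 bases: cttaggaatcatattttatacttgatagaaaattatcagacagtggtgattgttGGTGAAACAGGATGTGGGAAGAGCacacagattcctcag
DDX39B exon of 128 bases: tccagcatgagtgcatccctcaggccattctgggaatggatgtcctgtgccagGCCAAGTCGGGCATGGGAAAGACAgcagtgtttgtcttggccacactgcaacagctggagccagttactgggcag
DDX58 exon of 171 bases: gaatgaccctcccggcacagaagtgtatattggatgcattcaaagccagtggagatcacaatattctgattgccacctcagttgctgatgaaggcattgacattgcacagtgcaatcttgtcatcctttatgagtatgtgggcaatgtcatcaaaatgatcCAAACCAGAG
DDX58 exon of 152 bases: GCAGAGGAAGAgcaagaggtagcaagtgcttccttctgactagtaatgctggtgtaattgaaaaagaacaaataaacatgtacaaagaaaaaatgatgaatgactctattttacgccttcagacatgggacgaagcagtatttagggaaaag
DDX42 exon of 37 bases: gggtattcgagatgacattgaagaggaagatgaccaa
DHX57 exon of 84 bases: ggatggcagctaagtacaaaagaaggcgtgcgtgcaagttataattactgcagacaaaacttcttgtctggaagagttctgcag
DHX35 exon of 82 bases: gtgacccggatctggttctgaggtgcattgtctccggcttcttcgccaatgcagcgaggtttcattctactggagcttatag
DHX30 exon of 29 bases: gctgaacgttaacatttccaacatggcag

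SF3B5 depletion listed an event in 26 of the 28 genes (92.9%), the largest number of any treatment, and DDX5 and DHX16 were the exceptions. Of all 7112 listed genes, 71.0% had an event in that table. RBM39 depletion listed 9 of the 28 genes (32.1%, beside 36.5% of all listed genes). SRSF3 depletion listed 8 (28.6%, beside 39.4%), SRSF2 depletion 6 (21.4%, beside 27.1%) and SRSF7 depletion 5 (17.9%, beside 19.7%). SRSF1 depletion listed only DHX30 (3.57%, beside 22.4%), and MLN8237 only DDX58 (3.57%, beside 2.73%). In counts of events, SF3B5 depletion gave 60, SRSF3 depletion 13, RBM39 depletion 12, SRSF2 depletion 7, SRSF7 depletion 5, and SRSF1 depletion and MLN8237 1 each. Over all genes the entries numbered, in the same order, 11832, 4245, 3946, 2738, 1768, 2069 and 205. For 11 genes SF3B5 depletion was the only treatment with a listed event, and 16 genes appeared in more than 1 table. These counts have no share over all listed genes beside them, so nothing is read from them. DHX30 and DHX32 appeared in 5 tables each, and DDX11 and DHX35 in 4.

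**Figure D1:**
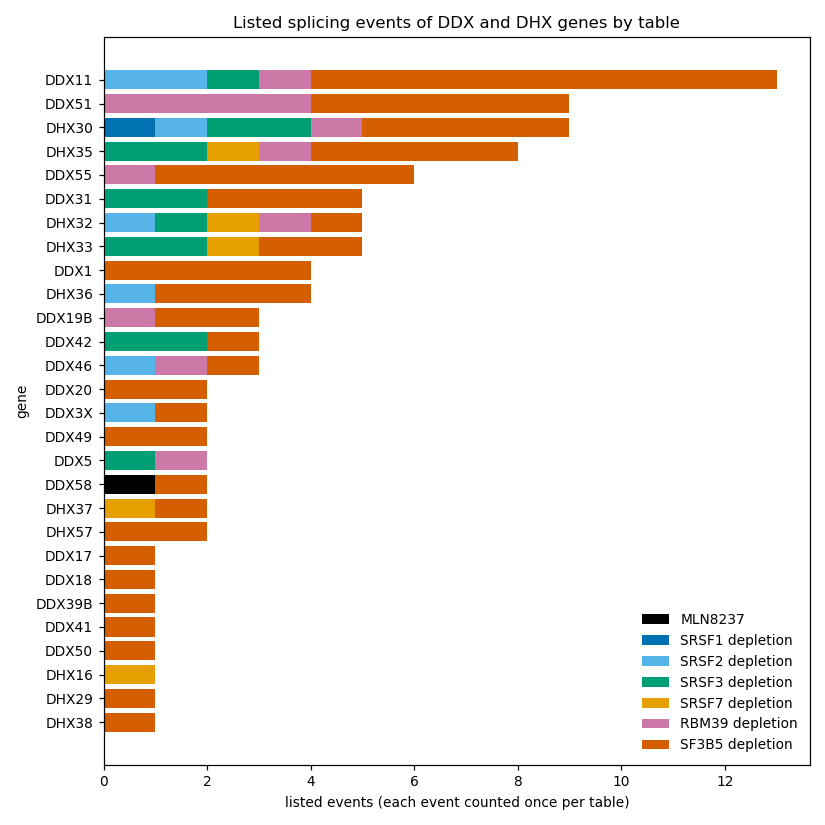
Number of listed splicing events (horizontal axis) in each of the 28 DDX and DHX genes (vertical axis), coloured by treatment, with an event counted once per table. DDX11 has the longest bar with 13 entries, and SF3B5 depletion supplies 60 of the 99, beside 11832 of the 26803 entries over all genes.

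How many of the family were listed can be set beside coding genes of like exon number. GENCODE 29 holds 55 protein-coding DDX and DHX genes, of which 28 (50.9%) had a listed event, beside 34.0% of all 19907 protein-coding genes. Family genes also have more exons, with a median of 17 annotated exons beside 8 for all coding genes. Among genes with 10 to 14 exons, 10 of 18 family genes (55.6%) were listed, beside 46.5% of all coding genes of that size. With 15 to 19 exons it was 7 of 15 (46.7%, beside 53.1%), and with 20 or more 11 of 18 (61.1%, beside 55.6%). None of the 4 family genes with fewer than 10 exons was listed, beside 22.3% of all such genes. Within bands of exon number the family's share was thus on either side of the share of all genes. The 27 family genes without a listed event include the spliceosomal DDX23, DHX8 and DHX15, the decay factor DDX6, and DHX9.

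Most listed events were exons with a lower PSI after treatment. Of the 84 exon entries, 77 were lower and 7 higher than control, beside 87.4% lower among all listed exon entries of the 7 tables. All 8 intron entries were higher, beside 84.5% of all. After SF3B5 depletion 51 of 52 family exons were lower, beside 97.9% of all listed exons in that table, and 5 of 5 introns were higher, beside 93.3%. After RBM39 depletion 7 of 8 exons were lower (beside 89.3%) and 3 of 3 introns higher (beside 89.5%). The exons were lower in 10 of 12 cases after SRSF3 depletion (beside 80.9%), in 5 of 6 after SRSF2 depletion (beside 73.5%) and in 3 of 4 after SRSF7 depletion (beside 78.5%). The directions of the family therefore ran close to those of each whole table. The other 7 entries were alternative 5′ or 3′ splice sites, for which every one of the 2529 entries in the 7 tables is listed with a higher PSI after treatment, so their direction carries no information.

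The family exons listed after SF3B5 depletion had a median PSI of 98.3% with siNT1, beside 97.0% for all exons of that table. Of the 52, 34 had a control PSI of at least 95%, as had 61.2% of all exons listed there, so both were mostly near full inclusion in control cells. Their median change was -28.3 points, beside -26.2 for all exons listed there. In the smaller tables, the median control PSI of family exons was 98.0% after SRSF2 depletion (6 exons, beside 79.3% for all), 93.7% after SRSF3 depletion (12 exons, beside 89.2%), 75.1% after SRSF7 depletion (4 exons, beside 78.5%) and 67.8% after RBM39 depletion (8 exons, beside 84.1%).

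**Figure D2:**
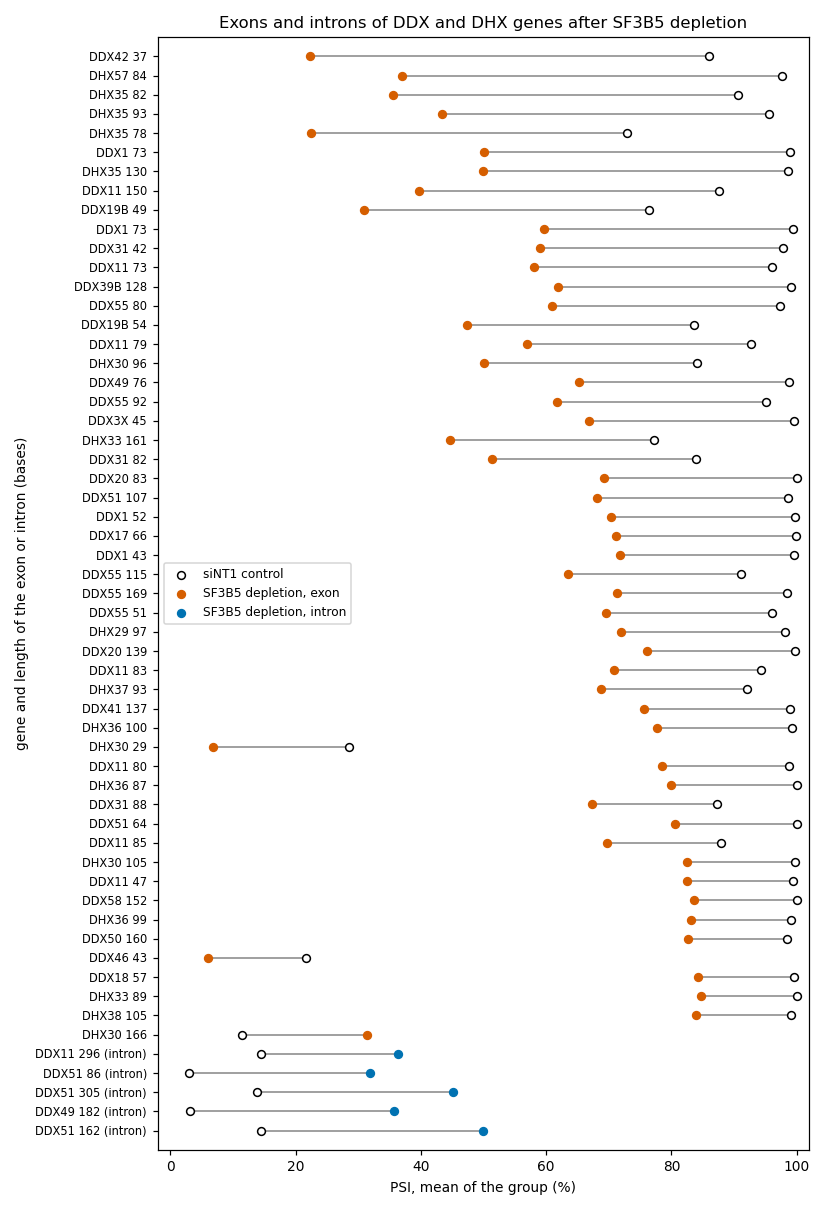
Authors' mean PSI in percent (horizontal axis) of the 52 exons and 5 introns of DDX and DHX genes listed after SF3B5 depletion, named by gene and length, with open circles for siNT1 and filled circles for the depletion. Exons are ordered by their change, from DDX42 (-63.7 points) at the top to DHX30 (+19.9) below, and the introns of DDX11, DDX49 and DDX51 stand to the right of their controls.

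The spliceosome helicases come first by role. Of 13 such genes 9 were listed, beside 34.0% of all coding genes, whose median exon number is smaller. Of their exon entries 16 were lower and 2 higher, beside 87.4% lower among all listed exon entries. DDX42 is a DEAD box protein that associates with SF3b, the complex to which SF3B5 belongs. The authors' mean PSI of its 37-base exon was 85.9% with siNT1 and 22.3% after SF3B5 depletion (-63.7 points), the largest change of any family event. With siNT2 the same exon was at 93.2%, and after SRSF3 depletion at 72.7% (-20.5). The exon encodes codons 145 to 157 of 938, ahead of motif I at codon 297, and its length is not a multiple of 3. Reading the annotated transcript without it meets a stop at codon 169, before any helicase motif. A 71-base exon of DDX42, which GENCODE places outside the coding sequence, was higher after SRSF3 depletion, at 34.4% beside 15.2% with siNT2 (+19.2).

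DHX35, a DEAH box protein of the catalytic spliceosome whose own step is less well known, had 4 exons lower after SF3B5 depletion, each by about 50 points. The PSI of its 82-base exon was 90.6% with siNT1 and 35.5% after depletion (-55.0). The 93-base exon that carries motif I went from 95.6% to 43.3% (-52.3), and the 130-base exon from 98.7% to 50% (-48.7). The 93-base exon is a multiple of 3, and the reading frame without it lacks 31 codons and ends at the usual stop. The 82-base and 130-base exons lie after motif VI and are not multiples of 3. The fourth, of 78 bases, was at 72.9% with siNT1, at 22.5% after SF3B5 depletion (-50.4) and at 89.4% after SRSF7 depletion (+16.4), so it was below control in one depletion and above it in the other. In the siNT2 set the 82-base exon was at 95.8% and, after SRSF3 depletion, at 79.6% (-16.2). A 62-base exon of DHX35 went from 97.3% with siNT2 to 81.2% after RBM39 depletion (-16.1). An alternative 3′ splice site of DHX35 was used in 43.9% of transcripts after SRSF3 depletion, beside 14.6% with siNT2 (+29.4).

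DDX39B (UAP56) helps U2 snRNP join the branch point and couples splicing to mRNA export. Its 128-base exon, with all of motif I, was at 99.1% with siNT1 and at 61.9% after SF3B5 depletion (-37.2). Reading on without the exon meets a stop at codon 91 of 428. The paralogue DDX39A is nearly identical in sequence, so reads shared between the pair make this value less certain; DDX39A itself had no listed event. DDX17, which with DDX5 acts in splicing and as a transcriptional coregulator, had a 66-base exon at 99.9% with siNT1 and 71.1% after SF3B5 depletion (-28.8). DDX5 itself was not listed after SF3B5 depletion. After RBM39 depletion an 87-base exon of DDX5 was at 23.5%, beside 69.1% with siNT2 (-45.7), the largest family change in that table. GENCODE has this exon, at chr17:64501057-64501143, only in a transcript without a full coding sequence. A 225-base exon of DDX5 was at 99.6% with siNT2 and 77.3% after SRSF3 depletion (-22.3).

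DDX46 is the human counterpart of yeast Prp5, which acts when U2 snRNP joins the branch point. Its 43-base exon, annotated only in a transcript labelled for nonsense-mediated decay, was lower after both RBM39 and SF3B5 depletion. It was at 42.5% with siNT2 and 6.49% after RBM39 depletion (-36.0), and at 21.6% with siNT1 and 5.98% after SF3B5 depletion (-15.6). The controls thus differed by 20.9 points, more than the change in the SF3B5 table. An alternative 5′ splice site of DDX46 was at 68.1% after SRSF2 depletion, beside 40.8% with siNT1 (+27.3). DHX16 is the counterpart of yeast Prp2, which prepares the spliceosome for its first reaction. Its only event was an alternative 5′ splice site at 28.6% after SRSF7 depletion and 5.63% with siNT1 (+22.9). DDX41 and DHX38, the counterpart of yeast Prp16, had 1 exon each lower after SF3B5 depletion, by 23.2 and 15.1 points.

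Of the 11 helicases of export, translation and decay 5 were listed, beside 34.0% of all coding genes. All 15 exon entries were lower, beside 87.4% of all listed exon entries, and 9 of the 15 came from the SF3B5 table, where 97.9% of all exons were lower. DHX33, which has roles in translation initiation and ribosomal RNA synthesis, had its motif I exon of 161 bases lower in 3 tables. It was at 77.2% with siNT1, at 44.7% after SF3B5 depletion (-32.6) and at 51.8% after SRSF7 depletion (-25.4). With siNT2 it was at 77.3% and after SRSF3 depletion at 52.3% (-25.0). The controls were within 1 point of each other, and 1 of 2 full coding transcripts that span the exon lacks it. Removing it from the transcript that includes it, read from that transcript's own start, gives a stop at codon 104 of 707. The product of the annotated coding transcript without the exon was not examined. A 128-base exon of DHX33 was at 96.5% with siNT2 and 80.9% after SRSF3 depletion, and an 89-base exon at 100% with siNT1 and 84.7% after SF3B5 depletion.

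DDX19B, which releases proteins from mRNA at the nuclear pore, had exons of 49 and 54 bases lower after SF3B5 depletion. The 49-base exon was at 76.4% with siNT1 and 31.0% after depletion (-45.4), and the 54-base exon went from 83.5% to 47.4% (-36.1). In the other set the 49-base exon was at 66.5% with siNT2 and 50.4% after RBM39 depletion (-16.2). Both exons lie ahead of motif I, and the gene shares most of its sequence with DDX19A, which makes the split of reads uncertain. DDX3X, which helps translation of structured mRNAs, had its largest change after SRSF2 depletion. Its 140-base exon was at 59.6% there, beside 99.965% with siNT1 (-40.3). GENCODE holds 3 exons of that length in the gene, so this one was not placed. A different exon of 45 bases was at 66.8% after SF3B5 depletion, beside 99.6% (-32.8). DDX3X was also treated here as a gene with near-identical copies, so its values are less certain. DHX36, which unfolds G-quadruplexes, had a 100-base exon at 99.3% with siNT1, 67.1% after SRSF2 depletion (-32.1) and 77.6% after SF3B5 depletion (-21.6). Exons of 87 and 99 bases in DHX36 were also lower after SF3B5 depletion, at 79.9% and 83.1%. DHX29, a factor of ribosome scanning, had a 97-base exon at 98.2% with siNT1 and 71.9% after SF3B5 depletion (-26.3).

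Of the 15 ribosome biogenesis helicases 7 were listed, beside 34.0% of all coding genes, with 26 entries. All 18 exon entries were lower, beside 87.4% of all listed exon entries, and 14 of the 18 came from the SF3B5 table, where 97.9% of all exons were lower. DDX51, which acts on the large ribosomal subunit, had 5 different introns listed, of 7 in the whole family. After SF3B5 depletion its 162-base intron was retained at 49.8%, beside 14.4% with siNT1 (+35.4). The 305-base intron was at 45.1%, beside 13.8% (+31.3), and the 86-base intron at 32.0%, beside 2.94% (+29.015). After RBM39 depletion the 243-base intron was at 40.3%, beside 16.9% with siNT2 (+23.4), the 162-base intron at 31.1%, beside 12.7% (+18.3), and the 816-base intron at 22.9%, beside 7.15% (+15.7). The 5 introns lie within chr12:132141607-132143694 on the minus strand, and only the 162-base intron was listed in both tables. The 107-base exon between the 162-base and 243-base introns was at 98.6% with siNT1 and 68.1% after SF3B5 depletion (-30.6). DDX49, also a ribosome assembly helicase, had a 182-base intron at 35.7% after SF3B5 depletion, beside 3.16% (+32.5), and a 76-base exon at 65.3%, beside 98.7% (-33.4).

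DDX55 had 5 exons lower after SF3B5 depletion, and DDX31 had 3. The largest change in DDX55 was in an 80-base exon, at 97.4% with siNT1 and 61.0% after depletion (-36.4), and in DDX31 in a 42-base exon, at 97.8% and 59.0% (-38.7). Both genes also had exons lower elsewhere. DDX31 exons of 236 and 177 bases were at 80.8% and 78.9% after SRSF3 depletion, each above 99% with siNT2. A DDX55 exon of 82 bases was at 83.9% after RBM39 depletion, beside 99.4%. GENCODE holds no exon of 80 or 82 bases in DDX55, so neither was placed. DHX37, a helicase of small-subunit assembly, had a 93-base exon at 92.1% with siNT1, at 68.8% after SF3B5 depletion (-23.4) and at 74.2% after SRSF7 depletion (-18.0). DDX18 and DDX50 had 1 exon each lower after SF3B5 depletion, by 15.4 and 15.8 points, both near the listing limit.

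DHX30 is a helicase of mitochondrial RNA granules that is needed for mitochondrial ribosome assembly, and it was the only family gene listed after SRSF1 depletion. Its 29-base exon, annotated only in processed transcripts or transcripts labelled for nonsense-mediated decay, was at 28.5% with siNT1. It was at 10.8% after SRSF1 depletion (-17.7), at 6.42% after SRSF2 depletion (-22.0) and at 6.90% after SF3B5 depletion (-21.6). After RBM39 depletion it was at 58.7%, beside 24.3% with siNT2 (+34.3). The exon was thus below its control after 3 depletions and above it after the fourth, while the controls differed by 4.13 points. The 96-base exon of DHX30, codons 10 to 42 of 1194, was at 84.1% with siNT1 and 50.005% after SF3B5 depletion (-34.1), and at 85.7% with siNT2 and 66.8% after SRSF3 depletion (-18.8). The 166-base untranslated exon was higher in the same tables, at 31.4% beside 11.5% (+19.9) and at 29.9% beside 13.1% (+16.8). A 105-base exon of DHX30 was at 99.7% with siNT1 and 82.6% after SF3B5 depletion (-17.2).

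DHX32, a DEAH box protein with no settled function, had a 48-base exon listed in 4 tables. GENCODE holds no exon of that length in the gene, so it was not placed. The 48-base exon was at 39.3% with siNT1, at 67.9% after SRSF2 depletion (+28.6) and at 16.6% after SRSF7 depletion (-22.7). With siNT2 it was at 48.7%, after SRSF3 depletion at 23.3% (-25.5) and after RBM39 depletion at 33.5% (-15.3). SRSF2 depletion alone was on the higher side. After SF3B5 depletion DHX32 had an alternative 5′ splice site, at 24.4% beside 1.71%. DHX57, likewise little studied, had an 84-base exon at 97.6% with siNT1 and 36.9% after SF3B5 depletion (-60.7), second only to the DDX42 exon. That exon spans codons 1130 to 1157 of 1386, after motif VI, and leaves the frame intact when skipped. An alternative 3′ splice site of DHX57 was at 22.4% after SF3B5 depletion and at 0 with siNT1.

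**Figure D3:**
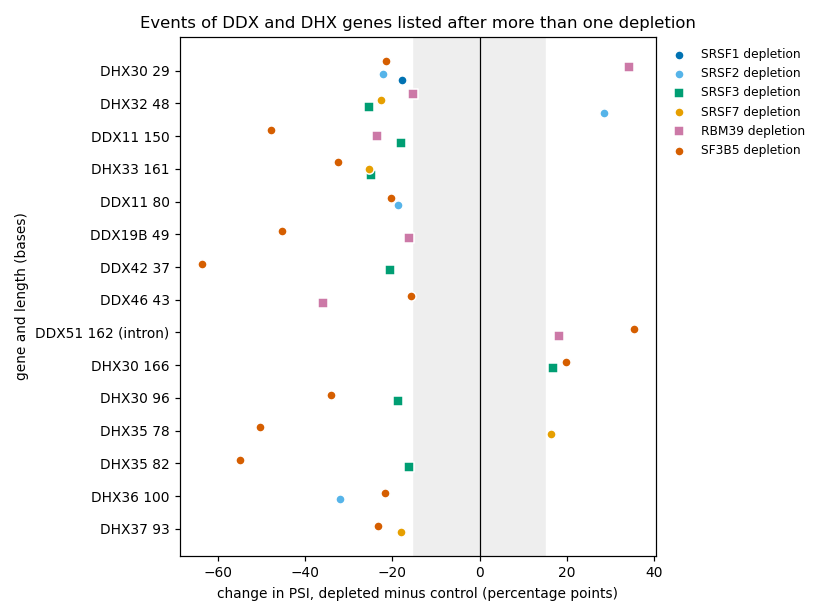
Change in PSI in percentage points (horizontal axis) for the 15 exons and introns listed after more than 1 depletion, with circles for depletions set against siNT1 and squares for those set against siNT2, offset vertically within a line for visibility. The DHX30 29-base, DHX32 48-base and DHX35 78-base exons have points on both sides of 0; the grey band marks changes under 15 points, which the tables do not list.

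The 15 shared events stood beside 63 that were listed in 1 table. The family had 99 entries for 78 distinct events, beside 26803 for 19275 in the whole series. How many events of the whole series were shared, or differed in direction, is not given here. The number shared is therefore not read as a trait of the family. The direction differed between tables for the 29-base exon of DHX30, the 48-base exon of DHX32 and the 78-base exon of DHX35. Depletions in 1 set were compared with the same control samples, whose values were identical across tables, and most listed exons were lower in these tables, so nothing is read from the events whose direction was shared. Between the sets, siNT1 and siNT2 differed by a median of 5.20 points over the 11 family events with both values, beside 2.72 points over all 3392 such events.

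Among genes of genome maintenance, transcription and RNP assembly, 3 of 4 were listed, beside 34.0% of all coding genes. All 17 exon entries were lower, beside 87.4% of all listed exon entries, and 13 of the 17 came from the SF3B5 table, where 97.9% of all exons were lower. DDX11, a DNA helicase of sister chromatid cohesion, had the most entries of any family gene, 13 in 4 tables. Its 150-base exon was at 87.6% with siNT1 and 39.7% after SF3B5 depletion (-47.9). With siNT2 that exon was at 94.2%, after RBM39 depletion at 70.7% (-23.5) and after SRSF3 depletion at 76.3% (-18.0). A 158-base exon was at 67.5% after SRSF2 depletion, beside 97.2% (-29.7), and an 80-base exon at 80.025% after SRSF2 and 78.5% after SF3B5 depletion, beside 98.8%. In 5 further DDX11 exons SF3B5 depletion gave changes from -16.9 to -38.0 points, and a 296-base intron was at 36.3%, beside 14.4%. DDX11 has near-identical copies, among them the pseudogene DDX12P, so all of its values are less certain. DDX1, which belongs to the tRNA ligase complex, had 4 exons lower after SF3B5 depletion, from -27.8 to -48.8 points, and none in any other table. DDX20 (Gemin3), a member of the SMN complex that assembles snRNPs, had an 83-base exon at 100% with siNT1 and 69.2% after SF3B5 depletion (-30.8).

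DDX58 (RIG-I), a sensor of viral RNA, was the only family gene listed after Aurora-A inhibition. Its 171-base exon was at 83.4% with DMSO and 100% after MLN8237 (+16.6), a change just past the listing limit. The neighbouring 152-base exon was at 100% with siNT1 and 83.6% after SF3B5 depletion (-16.4). The codons of motif VI are split between these exons, as the capitals in the sequences above show. The 171-base exon encodes codons 672 to 729 of 925, and skipping it keeps the frame. No other family event was listed after MLN8237, in a table of 205 events.

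An exon whose length is a multiple of 3 can be skipped within a coding sequence without a shift of the reading frame. Of 64 distinct family exons 21 had such a length (32.8%, exact 95% binomial interval 21.6 to 45.7, counting error only), beside 41.4% of 14593 (40.6 to 42.2), and the interval of the family includes the overall share. The interval counts exons of the same gene as independent. With 1 event per gene and table, the share was 42.9% of 35 exons. The median length of the 64 exons was 86 bases, beside 100, with a range of 29 to 236. None of the 64 was 27 bases or shorter, beside only 235 of all 14593 listed exons. In the range of 28 to 50 bases were 9 (14.1%), beside 8.52% of all listed exons. The 7 introns had a median length of 243 bases, beside 382 for the 2602 listed introns.

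Positions in the protein could be given for 45 coding exons in 22 genes. Of the 64 exons, 51 matched a single annotated exon by length, 9 matched several and 4 none. Of the 51, 6 were untranslated or in no full transcript labelled protein-coding. Taking the stretch from motif I to motif VI as the helicase core, 25 exons had codons within it, 6 lay before it and 14 after it. Motif I codons were in 4 exons (DDX39B, DDX55, DHX33 and DHX35), motif VI codons in 5 (1 each of DDX11, DDX51 and DDX55, and both of DDX58), and motif II codons in none. Motif II was sought as fewer letters than the other motifs. No count over all annotated exons of the family stands beside these, so nothing is read from the differences between motifs or positions. The 51-base exon of DDX55 holds a single codon of motif I. Skipping was read on 1 full coding transcript that includes the exon, from its own start. Skipping any of the 16 exons whose length is a multiple of 3 kept the usual stop, and skipping any of the other 29 led to an earlier one. In 17 of those 29 the new stop came at or before the end of motif VI. All spanning full coding transcripts of GENCODE include the exon in 33 of the 45 cases.

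**Figure D4:**
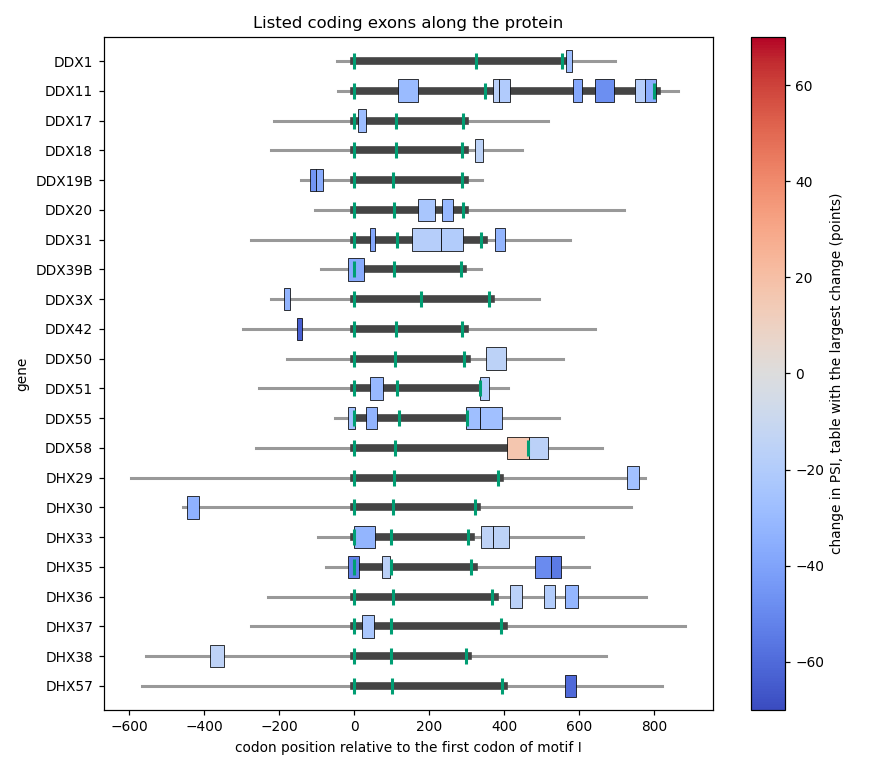
Proteins of 22 family genes as grey lines (horizontal axis, codons counted from the first codon of motif I at 0), with the core from motif I to motif VI in black, motifs I, II and VI as green ticks and the 45 listed coding exons as boxes coloured by change in PSI in the table where it was largest. The boxes lie along the whole length, 25 of them touching the core, and that of the 171-base exon of DDX58 is the only one on the red side of the scale.

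Other RNA helicases and known partners of the family were listed in the same tables, as background for the counts above. Of 22 other RNA helicases 16 had a listed event, beside 34.0% of all coding genes, and 14 of the 16 were listed after SF3B5 depletion, beside 71.0% of all listed genes. Of their exon entries 31 were lower and 6 higher, beside 87.4% lower among all listed exon entries. HELZ, a helicase of mRNA turnover, had an exon of 76 bases at 98.0% with siNT1 and 40.1% after SF3B5 depletion (-57.9). EIF4A1, the DEAD box helicase of translation initiation, had an alternative 3′ splice site at 88.9% after SRSF3 depletion, beside 4.40% with siNT2. Of 29 cofactors, mostly G-patch proteins that activate DEAH helicases and partners of DEAD box proteins, 22 were listed, beside the same 34.0%. Their exon entries were lower in 59 cases and higher in 9, beside the same 87.4%. The splicing factor RBM5, a G-patch protein, had an 85-base exon at 88.1% with siNT1 and 17.2% after SF3B5 depletion (-70.9). The same exon was at 89.7% with siNT2 and 38.6% after RBM39 depletion (-51.0). EIF4G1, the scaffold that holds the eIF4A helicases, had a 57-base exon at 87.6% with siNT1 and 31.0% after SF3B5 depletion (-56.6). For neither list was exon number set beside that of all coding genes, among which genes with more exons were more often listed. Neither list had an event after MLN8237. These examples were chosen after their values were seen.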

How the data were processed

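RNA of 20 HEK293T samples was sequenced, and the authors deposited 7 tables of differential splicing made with VAST-TOOLS, 1 for each comparison. The tools named in the submitters' processing notes are Bowtie and cutadapt, with hg38 as genome build; tool versions and the listing rule were not given in the sources used here. Per the file headers, the deposited PSI values are percent, as the mean of each group's 2 samples. The deposited change is another quantity, the difference of these means in percentage points, and event length is in bases. The changes given here are the deposited ones (python 3.11.15, pandas 2.3.3). Members were found by symbol, and exons and introns were placed on GENCODE 29 (GRCh38) where the gene holds 1 exon or intron of that length. Motif I, II and VI were found by pattern in the translated transcript. With no replicate values no test was made, and counts are set beside those over all listed events.

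Events are named where they were among the 5 lowest or 3 highest changes of a table, belong to the MLN8237 table or to a gene in 4 or more tables, are spliceosome helicase events of at least 25 points, or are the largest of a gene after SF3B5 depletion. The remaining ones are given by count, or were added after their values were seen. Members, lists and rules were chosen with earlier results of these data known. Alternatives used a 25-point limit, 1 event per gene, a control PSI of 20 to 80, no genes with near-identical copies, helicases with other symbols, or basic transcripts only.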

Additional observations from a re-analysis of the deposited data

How the results depend on the processing

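Of 73 values recomputed under 6 alternatives, 54 stayed within 1.5 times the reported count or within the exact 95% binomial interval of the reported share. This tally does not measure how stable the results are. Keeping 1 event per gene cannot change the number of genes with an event, so those values were the same by construction. The shares after MLN8237 and SRSF1 depletion rest on 1 exon each, and those of other small tables on few. Their intervals are wide, so a share that stayed within them says little. With a limit of 25 points, genes with an event numbered 0 after MLN8237, 0 after SRSF1, 3 after SRSF3, 1 after SRSF7, 3 after RBM39 and 17 after SF3B5 depletion. The lower exons then made up 100% after SRSF3 (2 exons), SRSF7 (1 exon) and SF3B5 depletion (31 exons). With a control PSI of 20 to 80, the genes numbered 0 after MLN8237, 3 after SRSF2, 2 after SRSF3, 3 after SRSF7, 5 after RBM39 and 6 after SF3B5 depletion. There 100% of exons were lower after SRSF3 (2 exons) and SF3B5 depletion (5 exons). With 1 event per gene, 100% of exons were lower after SRSF3 (7 exons) and SF3B5 depletion (24 exons). These alternatives use fewer events by construction. Shares of lower exons over all listed exons were not set beside them, so the values of 100% say nothing particular about the family. Leaving out genes with near-identical copies, adding helicases with other symbols, and using basic transcripts only moved none of the values recomputed under them beyond those bounds.

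No paired analysis was possible because the tables hold group means only and carry no replicate columns, so leaving out 1 replicate at a time was not run either. Depth is unknown, and 10 family entries lay between 15 and 16 points, where the listing limit decides whether an event appears.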
